A study of Bos taurus with 6 samples.

Results

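The collagen chains are the genes whose symbol is COL, a type number, A and a chain number, and membership was decided by symbol alone. Of the 32183 gene entries in the tables, 43 met this rule under 42 symbols, since COL5A1 had an entry for each of 2 stretches of chromosome 11. The family and the gene lists below were chosen with earlier results of these data known, so the counts over them are descriptions. RNA was sequenced from rumen epithelial primary cells (REPC) of 1 Holstein bull calf, aged 2 weeks and fed milk replacer, in 3 cultures given 5 mM butyrate for 24 h and 3 control cultures. Every culture came from the same animal, so the p-values below measure the spread between cultures and not between calves. The values are FPKM, fragments per kilobase of transcript scaled to the mapped fragments of the culture, which allow levels of different genes to be set side by side. Values of single cultures are given in the order of replicates 1, 2 and 3, and coordinates are those of the tables (build UMD3.1). The tables hold no counts, so the number of fragments behind each value is unknown.

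Collagens are trimers of alpha chains wound into a triple helix, and the chains that a cell makes set the kind of matrix it lays down. Fibrillar collagens form the ropes of connective tissue, type IV forms the sheet of the basement membrane under an epithelium, type VII anchors that sheet to the tissue beneath, and type XVII holds basal epithelial cells to it. In stratified epithelia such as that of the rumen, types I and III are known as products of the fibroblasts below the epithelium, while type XVII is a product of basal keratinocytes. Butyrate, the short-chain fatty acid that rumen microbes release, inhibits histone deacetylases.

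Markers of epithelial cells and some markers of fibroblasts were both present. Of all genes tested, 32.5% were called higher and 25.9% lower after butyrate, and the counts of markers called are to be read beside those shares. All 12 epithelial markers were above 0 in each culture, led by the keratin KRT8 with a mean FPKM of 1380 ± 61.4 in control and 1971 ± 35.1 after butyrate (SD, n = 3). Their summed FPKM was 2445 to 2554 over the control cultures and 5111 to 5208 over the butyrate cultures, with 9 of 12 called higher, the basal keratins KRT14 and KRT15 among them. The largest part of that rise lay in KRT19, a keratin that went from 492 ± 11.5 to 1953 ± 31.2. KRT18 went from 76.4 ± 3.12 to 225 ± 10.9 (SD, n = 3, both named after their values were seen). KRT5 was called lower at a log2 fold change of -0.17, a call that 9 alternative fits lost or reversed. The 11 fibroblast markers summed to 3757 to 3875 over the control cultures and 5357 to 5621 over the butyrate cultures, most of it in VIM, an intermediate filament protein that other cell types also express. Of 9 fibroblast markers tested, 8 were called higher, among them THY1 from 21.5 ± 2.55 to 87.6 ± 5.37 and TWIST1 (a call lost in 4 alternative fits), and PRRX1 was called lower, from 54.8 ± 0.719 to 7.80 ± 3.61 (SD, n = 3). Of the 11, 3 stayed under an FPKM of 1 in all 6 cultures: LUM, and the receptor PDGFRB and protease FAP, both at 0.152 or lower (named after their values were seen). The smooth muscle and myofibroblast list summed to 6891 to 7230 over the control cultures and 3215 to 3865 over the butyrate cultures, with 5 of 6 called lower and DES called higher. Of those 5, TAGLN, the most abundant of the list, went from 3074 ± 83.2 to 1978 ± 141 (SD, n = 3; limma, adjusted p = 1.2e-05). MYH11, also among the 5, passed the filter on low values only through its control cultures. Its mean was 0.662 in control against 0.0762 after butyrate, so it had to come out lower. The endothelial gene CDH5 and the leukocyte gene PTPRC were listed at 0 in all cultures. The endothelial list summed to at most 8.43 and the immune list to at most 9.50, with VWF, PECAM1 and CD68 called higher, the last not with quantile normalization (limma, adjusted p = 0.253). CD14, the most abundant of the immune list, had 5.575 ± 1.105 in control and 6.803 ± 1.189 after butyrate, without a call (SD, n = 3; limma, adjusted p = 0.1998). The part that any of these cell types has in the collagen values was not tested, and in bulk RNA fewer cells of a type and less RNA per cell cannot be told apart.

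Collagen mRNA was more abundant after butyrate. The summed FPKM of the chains was 2524, 2591 and 2530 in the control cultures and 3905, 3614 and 3936 in the butyrate cultures. Every butyrate culture lay above every control culture, and the ratio of the means was 1.498, or 1.34 with COL1A1 left out. As a share of all FPKM in a culture, the chains took 0.375% ± 0.00447 in control and 0.612% ± 0.0286 after butyrate (SD, n = 3).

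Of the 43 entries, 31 reached a mean FPKM of 0.1 over the 6 cultures and were tested with limma, a linear model fitted across all genes, on log2(FPKM + 0.1). A call means a Benjamini-Hochberg adjusted p under 0.05 over the 15813 genes tested. By that rule 21 collagen entries were called higher, which is 67.7% of those tested, against 32.5% of all genes tested. Lower values were called for 3 entries, or 9.68%, against 25.9% of all genes, and 7 entries passed in neither direction. The median log2 fold change was 0.76 over the tested entries and 0.10 over all genes. Of the 31, 4 entries (COL4A6, COL5A3, COL6A3 and COL9A2) passed the filter on low values only through their butyrate cultures and so had to come out higher, and they add nothing to these counts as support. A differentially expressed gene (DEG), by the study's thresholds, needs p under 0.05 after Bonferroni adjustment together with more than 2 in absolute log2 fold change. The study applied such thresholds with Cufflinks, not limma, and reported more DEGs in both directions than the limma fit gave here. By these thresholds in limma COL8A2 and COL18A1 were upregulated, 6.45% of the tested entries against 2.46% of all genes. No collagen chain was a downregulated DEG in limma, against 1.51% of all genes, while the 3 entries called lower were those with an unadjusted p under 0.05.

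**Figure D1:**
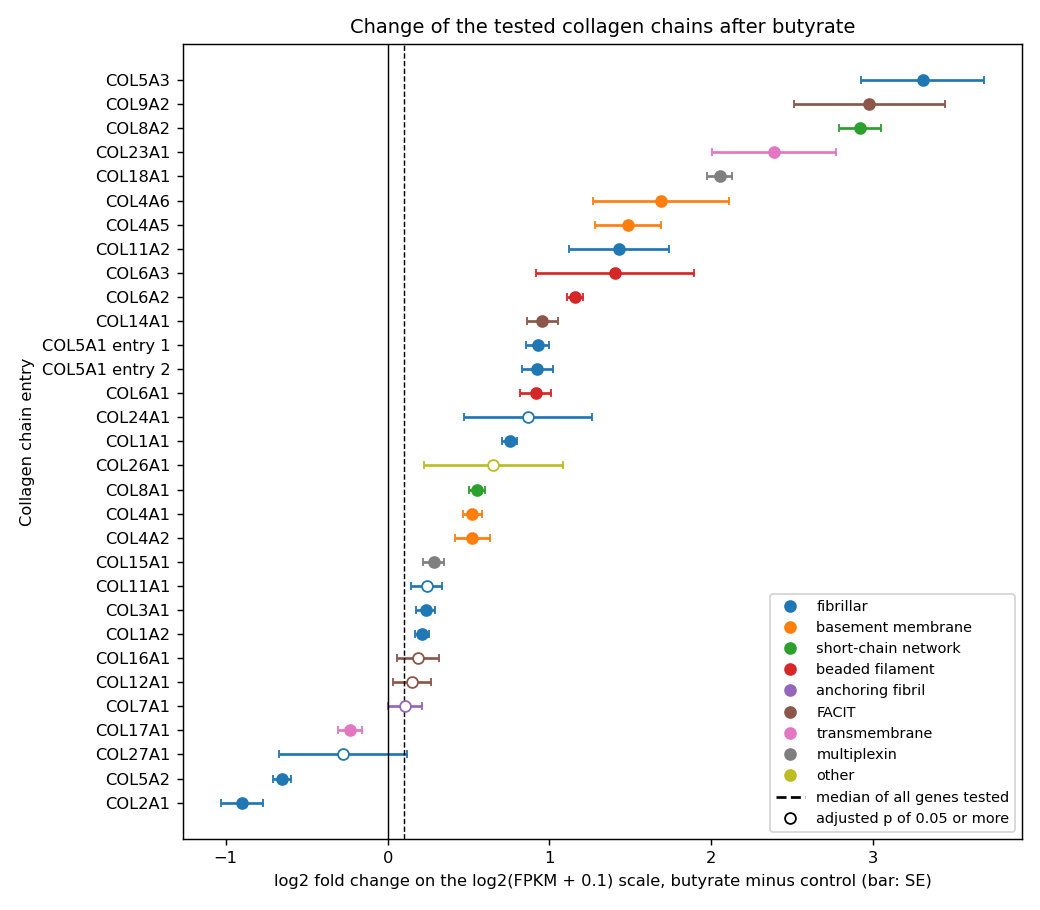
Log2 fold change (butyrate minus control, on the log2(FPKM + 0.1) scale) of the 31 tested collagen entries, with the standard error as a bar and the colour giving the class. Filled points have an adjusted p under 0.05, and the dashed line is the median of all genes tested, 0.10. COL5A3, COL9A2 and COL8A2 lie at the top, and COL2A1, COL5A2 and COL17A1 are the filled points below 0.

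The fibrillar class held the most abundant chains. Of its 12 entries 7 were called higher and 2 lower, against 32.5% and 25.9% of all genes. The 7 count COL5A1 through each of its 2 entries, and they include COL5A3, whose direction was set by the filter. COL1A1 (chr19:37088245-37105011), the alpha 1 chain of type I collagen, stood at an FPKM of 1109, 1165 and 1173 in control and at 2014, 1816 and 1993 after butyrate. The groups did not overlap, and COL1A1 went from rank 60 to rank 28 among all entries by mean FPKM. Its log2 fold change was 0.76 ± 0.05 (SE; limma, adjusted p = 2.3e-06). COL1A2, its partner in the same trimer, stood at 469.5, 470.2 and 438 in control and at 518, 528 and 554 after butyrate. That rise was small, with a log2 fold change of 0.21 ± 0.04 (SE; limma, adjusted p = 0.00283), of which 0.11 remained after subtracting the median of all genes. COL3A1, the chain of type III collagen, rose by a similar amount, from 313 ± 8.94 to 369.8 ± 28.8 (SD, n = 3), or by 0.24 on the log2 scale (limma, adjusted p = 0.00767). The cultures did not overlap for either gene, although COL3A1 lost its call when limma was fitted without the mean-variance trend (adjusted p = 0.0597).

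Type V collagen, which sits inside type I fibrils and limits their width, showed opposite changes in its chains. COL5A2 (chr2:7139350-7300077) stood at 109.7, 100.4 and 97.3 in control and at 65.1, 64.7 and 65.7 after butyrate. All butyrate values were below all control values, and the log2 fold change was -0.65 ± 0.06 (SE; limma, adjusted p = 1.6e-05). COL5A1, the chain it pairs with, rose in both of its entries. The entry on chromosome 11 from 106854338 to 106940898 went from 51.1 ± 3.33 to 97.2 ± 6.35, and the one from 106984640 to 107031390 went from 12.14 ± 0.825 to 23.1 ± 2.33 (SD, n = 3). Their log2 fold changes, 0.93 and 0.92, were nearly the same, but the split of the gene over 2 entries makes the level of each uncertain. The third chain, COL5A3, was listed at 0, 0.0356 and 0 in control and at 1.14, 1.25 and 0.684 after butyrate. Its log2 fold change was 3.31 ± 0.38 (SE), a size that depends on the pseudocount because its control values were close to 0, and it passed the filter only through its butyrate cultures. With a pseudocount of 1, and with quantile normalization, it was below that of COL8A2.

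The chains of cartilage-type fibrils were low. COL2A1 (chr5:32450452-32481246), the main collagen of cartilage, fell from 8.10, 8.39 and 7.001 in control to 4.49, 3.68 and 4.31 after butyrate, with a log2 fold change of -0.90 ± 0.13 (SE; limma, adjusted p = 0.000391). It was the largest fall among the tested chains, and the groups were apart. COL11A2 rose from 0.355 ± 0.0930 to 1.14 ± 0.323 (SD, n = 3; limma, adjusted p = 0.00391), a call lost with quantile normalization (0.0632). COL11A1, its partner in type XI collagen, had 7.60 ± 0.148 in control and 9.01 ± 0.562 after butyrate (SD, n = 3) and did not pass (limma, adjusted p = 0.0565). Its groups did not overlap, and it passed without the trend (0.0400), after rescaling to TPM (0.0112) and without butyrate replicate 3 (0.0453). The developmental fibrillar chains COL24A1, at 0.458 ± 0.276 and 0.846 ± 0.162, and COL27A1, at 0.587 ± 0.182 and 0.488 ± 0.231 (SD, n = 3), overlapped between groups and did not pass either, although COL24A1 did without control replicate 3 (limma, adjusted p = 0.0221).

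**Figure D2:**
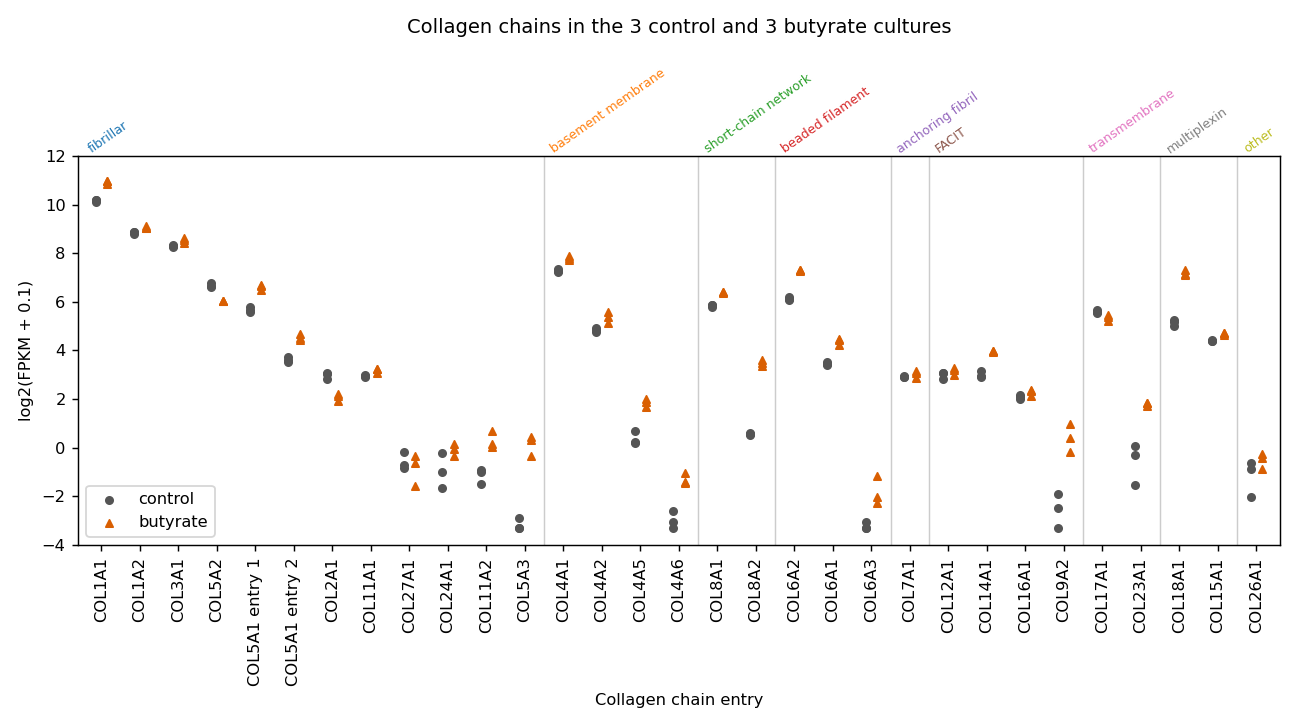
FPKM of each tested collagen entry on a log2(FPKM + 0.1) scale in the 3 control (grey circles) and 3 butyrate cultures (orange triangles), ordered by class and by control level. COL1A1, COL1A2 and COL3A1 lie highest, and the triangles of COL5A2 and COL2A1 lie below their circles.

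Among the basement membrane chains, COL4A1, COL4A2 and COL4A5 were called higher, as was COL4A6, which passed the filter only through its butyrate cultures and so had to come out higher. COL4A1 stood at 150.2, 162 and 153 in control and at 239, 209.9 and 221 after butyrate, and COL4A2, with which it forms the common type IV trimer, at 26.6, 30.5 and 28.5 in control and at 47.1, 35.01 and 41.8 after butyrate. The genes lie 236 bases apart on chromosome 12 in the coordinates of the tables. Their log2 fold changes were alike, 0.52 ± 0.06 for COL4A1 and 0.52 ± 0.11 for COL4A2 (SE; limma, adjusted p = 7.2e-05 and 0.00309), while their levels differed several-fold in every culture. COL4A5 and COL4A6, which neighbour each other on chromosome X and build the type IV trimers of epithelial linings such as that of the kidney, had lower levels and larger log2 fold changes. COL4A5 stood at 1.52, 1.07 and 1.04 in control and at 3.86, 3.13 and 3.61 after butyrate, a log2 fold change of 1.49 ± 0.20 (SE; limma, adjusted p = 0.000272). COL4A6 stood at 0.0199, 0 and 0.0618 in control and at 0.259, 0.276 and 0.381 after butyrate, and its call (limma, adjusted p = 0.00807) was lost with quantile normalization (adjusted p = 0.175). COL4A3 was listed at 0 in every culture and COL4A4 at an FPKM of 0.0723 or lower.

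The chains that tie epithelial cells to the basement membrane, or that membrane to the tissue beneath, were not called higher. COL7A1, the anchoring fibril chain, stood at 7.56, 7.38 and 7.43 in control and at 8.21, 7.26 and 8.70 after butyrate, with overlapping groups (log2 fold change 0.11 ± 0.10, SE; limma, adjusted p = 0.409). COL17A1, the transmembrane collagen of hemidesmosomes, stood at 47.5, 49.9 and 45.9 in control and at 41.3, 36.9 and 43.9 after butyrate. The groups did not overlap, with a log2 fold change of -0.23 ± 0.07 (SE; limma, adjusted p = 0.0257). Of the 3 falls, COL17A1 alone lost its call in the alternative fits run. It did so with the replicate block (adjusted p = 0.0504), without the trend (0.0783), after rescaling to TPM (0.234), with quantile normalization (0.0927), and without control replicate 1, control replicate 2, butyrate replicate 1 or butyrate replicate 2 (0.0609, 0.0888, 0.0511 and 0.0694).

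Type VI collagen, which makes beaded filaments around cells, rose in its 2 abundant chains. COL6A2 stood at 69.1, 73.4 and 67.9 in control and at 158, 154 and 158 after butyrate, with a log2 fold change of 1.16 ± 0.05 (SE; limma, adjusted p = 2.7e-07). COL6A1, 119078 bases away on chromosome 1, went from 10.9 ± 0.601 to 20.6 ± 1.86 (SD, n = 3), at a log2 fold change of 0.91 ± 0.09 (SE; limma, adjusted p = 4.5e-05). COL6A3, the large chain that completes the usual trimer, stayed close to 0, with 0, 0.0197 and 0 in control and 0.143, 0.106 and 0.344 after butyrate. It passed the filter only through its butyrate cultures and so had to come out higher. Its call (limma, adjusted p = 0.0356) was lost with the replicate block (0.0630), with a pseudocount of 1 (0.0821), with quantile normalization (0.541) and with control replicate 1, 2 or 3 left out (0.0784, 0.0579 and 0.0792), and without butyrate replicate 1 or 3 it was too low to be tested. COL6A5, a chain that can take its place, was listed at 0 throughout.

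The type VIII chains of the short-chain network class both rose, COL8A2 from the lower level. COL8A2 (chr3:110280027-110304427) stood at 1.43, 1.39 and 1.33 in control and at 11.9, 11.2 and 10.3 after butyrate. Every butyrate value was several times every control value, and the log2 fold change was 2.92 ± 0.13 (SE; limma, Bonferroni-adjusted p = 0.000126). COL8A1 was far more abundant, at 58.2, 57.7 and 54.3 in control and at 81.7, 83.3 and 84.7 after butyrate, a log2 fold change of 0.55 ± 0.05 (SE; limma, adjusted p = 2.3e-05). COL10A1, the chain of growth plate cartilage in the same class, was at an FPKM of 0.0345 or lower in every culture.

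COL18A1 (chr1:146989202-147041015), a heparan sulfate-bearing collagen of basement membranes whose end fragment is endostatin, was the other upregulated DEG. It stood at 36.1, 31.8 and 37.8 in control and at 142, 139 and 159 after butyrate, and went from rank 2953 to rank 793 among all entries. Its log2 fold change of 2.05 ± 0.08 (SE; limma, Bonferroni-adjusted p = 4.4e-05) lay close to the threshold of 2, and it was 1.98 without control replicate 2 and 1.99 without butyrate replicate 3. After subtracting the median of all genes it was 1.95, below the threshold, and after rescaling to TPM it was 2.18. COL15A1, the other multiplexin, rose from 20.9 ± 0.234 to 25.5 ± 0.934 (SD, n = 3; limma, adjusted p = 0.00480), a log2 fold change of 0.28.

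The FACIT collagens attach to the surface of fibrils. COL14A1, one of those bound to type I fibrils, stood at 7.56, 8.78 and 7.42 in control and at 15.8, 15.5 and 15.0 after butyrate, with a log2 fold change of 0.96 ± 0.10 (SE; limma, adjusted p = 4.0e-05). COL12A1, a close relative that also binds type I fibrils, had 7.95 ± 0.786 and 8.85 ± 0.828, and COL16A1 had 4.16 ± 0.296 and 4.75 ± 0.414 (SD, n = 3), with overlapping groups and no call for either (limma, adjusted p = 0.296 and 0.252). COL9A2, a chain of cartilage type IX collagen, stood at 0, 0.165 and 0.0799 in control and at 0.787, 1.86 and 1.23 after butyrate (log2 fold change 2.98 ± 0.47, SE; limma, adjusted p = 0.000625). It passed the filter only through its butyrate cultures and so had to come out higher. The size of its change depends on the pseudocount, and was 1.06 with a pseudocount of 1. Its trimer partners COL9A1 and COL9A3 were too low to be tested, with no value above 0.103.

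COL23A1, a transmembrane collagen, stood at 0.242, 0.720 and 0.938 in control and at 3.19, 3.48 and 3.46 after butyrate. The groups were well apart, and its log2 fold change was 2.39 ± 0.38 (SE; limma, adjusted p = 0.000725), which did not meet the Bonferroni threshold. COL26A1 had 0.377 ± 0.209 in control and 0.604 ± 0.152 after butyrate (SD, n = 3) and did not pass (limma, adjusted p = 0.220). The 12 entries too low to be tested had no FPKM above 0.143 in any culture. Of these, COL4A3, COL6A5, COL19A1 and COL25A1 were listed at 0 in all 6 cultures. COL13A1, COL20A1 and COL22A1 were listed at 0 in the control cultures and at an FPKM of 0.0715 or lower after butyrate. COL21A1 reached 0.0266 in 1 control culture and lay at 0.0568, 0.141 and 0.143 after butyrate.

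The authors' confidence bounds give the precision of each FPKM. For COL1A1 the bounds were 1094 to 1124 in control replicate 1 and 1994 to 2034 in butyrate replicate 1, and for COL8A2 they were 0.872 to 1.98 and 10.4 to 13.4 in the same cultures. For 17 of the 31 tested entries, the bounds of the 3 butyrate cultures did not touch those of the 3 control cultures. The share of all genes with bounds apart in this way was not computed, so the 17 cannot be read as a trait of the collagens. Entries of other genes overlapped 7 of the tested chains, COL4A5, COL5A2, COL7A1, COL11A1, COL23A1, COL26A1 and COL27A1, and whether reads were assigned by strand is not given in the sources used here.

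The make-up of the collagen mRNA differed between the groups, while the same 3 chains led in both. COL1A1, COL1A2 and COL3A1 together made up 75.4% ± 0.231 of the summed chain FPKM in control and 74.5% ± 0.271 after butyrate (SD, n = 3). Within them, COL1A1 went from 45.1% ± 1.21 to 50.8% ± 0.686, COL1A2 from 18.0% ± 0.647 to 14.0% ± 0.677, and COL3A1 from 12.3% ± 0.344 to 9.68% ± 0.351 (SD, n = 3). COL18A1 went from 1.38% ± 0.139 to 3.83% ± 0.203 and COL6A2 from 2.75% ± 0.0758 to 4.11% ± 0.137, while COL5A2 went from 4.02% ± 0.281 to 1.71% ± 0.0707 (SD, n = 3). By class, the summed FPKM after butyrate was 1.45 times the control for the fibrillar and for the basement membrane chains, 2.19 times for the beaded filament chains, 3.06 times for the multiplexins and 0.911 times for the transmembrane chains. The transmembrane sum overlapped between groups.

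**Figure D3:**
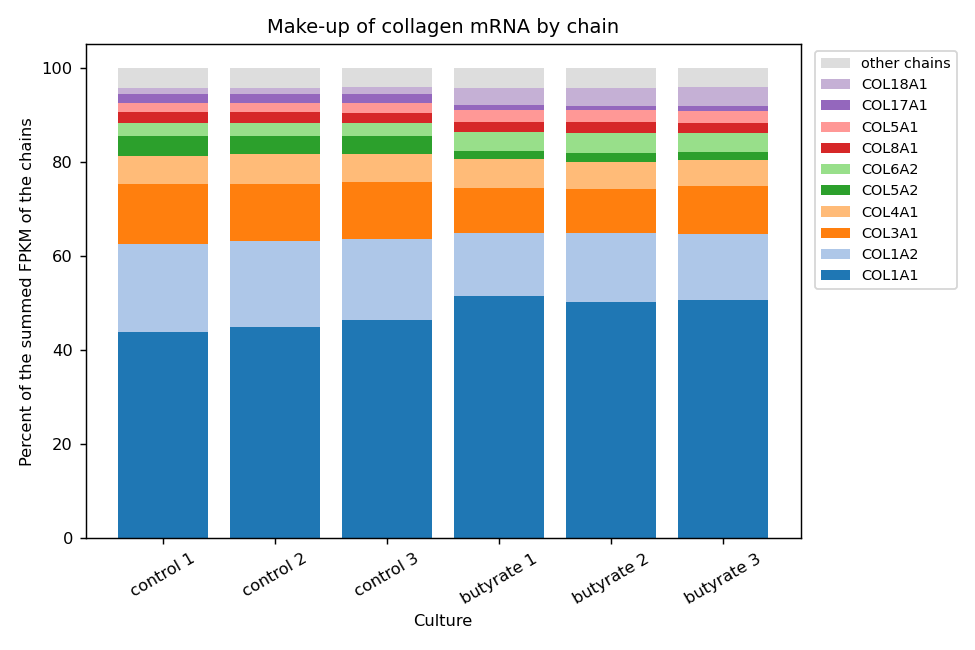
Share of each of the 10 most abundant chains in the summed collagen FPKM of every culture, in percent, with all further chains in grey. COL1A1 takes between 43.9% and 46.3% in control and between 50.2% and 51.6% after butyrate, and the bands of COL5A2 and COL17A1 are narrower after butyrate.

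Ratios between chains were read within each culture, which removes any scaling of the whole culture. The FPKM ratio of COL1A1 to COL1A2, whose trimer holds a pair of alpha 1 chains for each alpha 2 chain, was 2.36, 2.48 and 2.67 in control and 3.89, 3.44 and 3.60 after butyrate. The ratio of COL5A1, read from its more abundant entry, to COL5A2 went from 0.501 ± 0.0617 to 1.49 ± 0.0915, so the more abundant chain differed between the groups. COL3A1 and COL5A2 are neighbours, 17208 bases apart on chromosome 2, and their ratio went from 3.06 ± 0.131 to 5.67 ± 0.398 (SD, n = 3). The ratio of COL8A1 to COL8A2 went from 41.0 ± 0.377 to 7.52 ± 0.703, and that of COL6A1 to COL6A2 went from 0.156 ± 0.0107 to 0.132 ± 0.0101 (SD, n = 3). For these 5 pairs the groups did not overlap (two-sided exact permutation test, p = 0.1, which is the floor for 3 against 3, and 0.12 after Benjamini-Hochberg adjustment over 6 pairs). All 6 pairs were chosen after their values were seen, so the non-overlap is a description and the test adds no support. The ratio of COL4A1 to COL4A2 was 5.44 ± 0.180 in control and 5.46 ± 0.479 after butyrate, with overlapping groups (SD, n = 3; exact permutation test, p = 1).

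**Figure D4:**
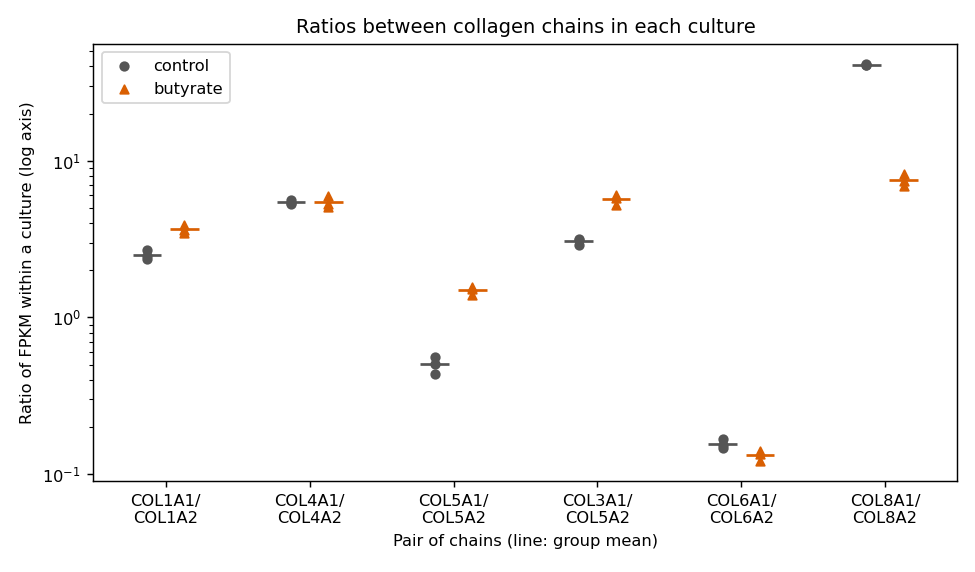
FPKM ratio of 6 pairs of collagen chains within each culture, on a log axis, with lines at the group means (grey circles, control; orange triangles, butyrate). The ratio of COL8A1 to COL8A2 drops from about 41.0 to 7.52, that of COL5A1 to COL5A2 crosses 1, and that of COL4A1 to COL4A2 overlaps between groups.

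Genes that modify, fold, export, trim and crosslink collagen chains moved in both directions. Of 36 such genes in 2 lists, 33 were tested, 15 were called higher and 11 lower, against 32.5% and 25.9% of all genes, with a median log2 fold change of 0.08 against 0.10 over all genes. After rescaling to TPM the counts were 16 higher and 7 lower. Chains become stable helices only after hydroxylation of proline and lysine in the endoplasmic reticulum, and in the list of hydroxylation, glycosylation and folding genes 8 were called higher and 8 lower of 18 tested. PPIB, a prolyl isomerase that speeds folding and in control the most abundant gene of the list (after butyrate P4HB was), fell from 916 ± 4.97 to 721 ± 21.9 (SD, n = 3; limma, adjusted p = 4.2e-05). P4HA3, a catalytic subunit of prolyl 4-hydroxylase, had the largest rise, from 0.227, 0.108 and 0.512 in control to 3.05, 3.54 and 2.68 after butyrate (log2 fold change 3.19 ± 0.39, SE; limma, adjusted p = 0.000131). TMEM38B, an ion channel of the endoplasmic reticulum, had the largest fall, with a log2 fold change of -0.67 ± 0.12 (SE; limma, adjusted p = 0.00141), and COLGALT2 was listed at 0. Chosen after its values were seen, the lysyl hydroxylase PLOD2 rose from 131 ± 7.85 to 259 ± 23.6, whereas the collagen chaperone SERPINH1 fell from 716 ± 14.6 to 492 ± 20.9 (SD, n = 3; limma, adjusted p = 7.3e-06 and 7.9e-06).

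In the list of export, propeptide cleavage and crosslinking, 7 of 15 tested genes were called higher and 3 lower, against 32.5% and 25.9% of all genes. All 3 that fell were lysyl oxidases. These copper enzymes crosslink collagen and elastin outside the cell. LOX, the most abundant, stood at 624, 623 and 647 in control and at 262, 238 and 268 after butyrate, with a log2 fold change of -1.30 ± 0.05 (SE; limma, adjusted p = 1.9e-07). LOXL1 and LOXL2, named after their values were seen, were the other falls, with log2 fold changes of -0.68 and -0.39. LOXL3 was the list's DEG, at 1.07, 1.33 and 1.18 in control and 6.37, 6.79 and 6.22 after butyrate (log2 fold change 2.35 ± 0.15, SE; limma, Bonferroni-adjusted p = 0.00308). LOXL4, chosen after its values were seen, rose from 20.2 ± 1.43 to 68.9 ± 2.20 (SD, n = 3; limma, adjusted p = 2.0e-07). ADAMTS2, the main procollagen I N-proteinase and likewise named after its values were seen, was too low to be tested, with no value above 0.175.

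**Figure D5:**
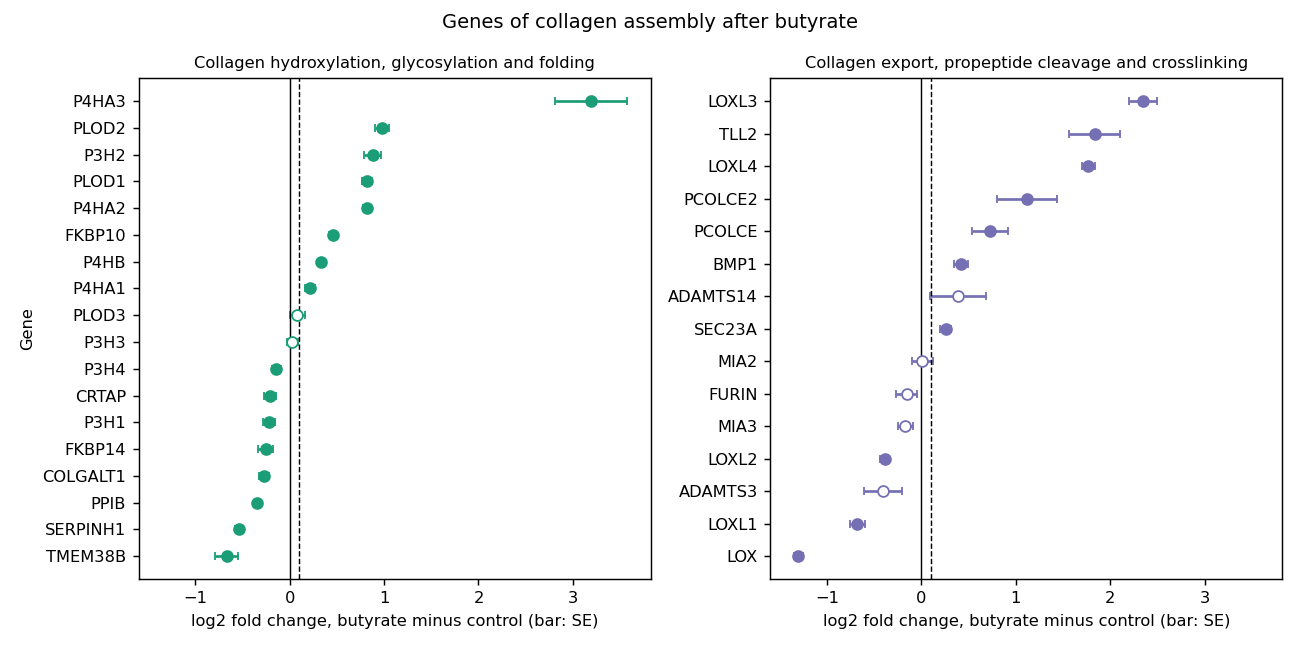
Log2 fold change (butyrate minus control, with the standard error as a bar) of the tested genes that modify and fold collagen chains (left) and that export, trim and crosslink them (right). Filled points have an adjusted p under 0.05 and the dashed line is the median of all genes tested, 0.10. P4HA3 and LOXL3 lie at the top of their panels, and TMEM38B and LOX at the bottom.

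Matrix partners of collagen mostly rose. Of 9 proteins that bind collagen fibrils, 8 were called higher and none lower in limma (0 lower also at an unadjusted p under 0.05), against 32.5% and 25.9% of all genes. Their median log2 fold change was 0.96. SPARC, a collagen-binding glycoprotein and the most abundant of them, went from 2326 ± 19.4 to 2900 ± 51.2 (SD, n = 3; limma, adjusted p = 2.4e-05). ASPN, a small leucine-rich proteoglycan, had the largest rise, from 0.526 ± 0.138 to 2.10 ± 0.354 (SD, n = 3; limma, adjusted p = 0.000342). BGN, another of that family named after its values were seen, had 68.4 ± 1.02 and 70.3 ± 3.88 (SD, n = 3) and was the gene without a call, although it passed after rescaling to TPM (limma, adjusted p = 0.0306). Of 8 collagen receptors, 3 were called higher and 1 lower, against 32.5% and 25.9% of all genes. The call for a fall was that of ITGB1, the beta subunit shared by the collagen-binding integrins and the most abundant of the list, with 693 ± 23.5 in control and 629 ± 41.1 after butyrate (SD, n = 3; limma, adjusted p = 0.0449). The groups overlapped, and the replicate block ended the call (adjusted p = 0.0770). Rescaling to TPM (0.804), fitting without the trend (0.183) and 4 of the 6 fits with a replicate left out also ended it, among other alternatives. Quantile normalization turned its log2 fold change from -0.14 to 0.16, called higher (limma, adjusted p = 0.0152). Of the 3 called higher, ITGA11, at 0.118, 0.0260 and 0 in control and at 0.403, 0.216 and 0.224 after butyrate, passed the filter only through its butyrate cultures and so had to come out higher.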

How the data were processed

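RNA-seq of 3 control and 3 butyrate REPC cultures was used. The authors trimmed reads with Trim Galore 0.4.1, aligned them with STAR, kept uniquely mapped reads and deposited FPKM per gene from Cufflinks with confidence bounds. Coordinates are those of the tables, for which the submitters' processing notes name UMD3.1. Chromosome names follow the chromosome most gene symbols of a sequence have in the RefSeq table of ARS-UCD2.0. Entries were joined by position, and 2 genes with a failed estimate were left out. The tables hold no counts, so the number of fragments per gene is unknown, although the paper gives a read total for its RNA-seq data. The commonest ratio of low FPKM values put the relative depth of the cultures between 0.871 and 1.01 of control replicate 1.

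The fit was limma 3.58.1 (R 4.3.3), with its variance trend, to log2(FPKM + 0.1), a scale that understates changes of low genes, over 15813 genes whose mean FPKM reached 0.1. The fit was checked on data simulated with normal noise on the log scale. Changes were put only into well-expressed genes, so the check does not cover changes of the chains near 0. Sums and shares used the more abundant COL5A1 entry. Every collagen entry is named. In the other lists the rule named DEGs, the most abundant gene, the largest rise and fall among calls, and genes at 0 throughout. Members and lists were chosen with earlier results of these data known, and the chain pairs after their values were seen. Alternatives were other pseudocounts, filters, scalings and thresholds, no trend, a replicate block and each culture left out.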

Additional observations from a re-analysis of the deposited data

How the results depend on the processing

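Collagen chains called higher (21) or lower (3) stayed within 1.5 times these counts in every alternative run, with 16 to 22 higher and 2 or 3 lower, the 16 among genes whose mean FPKM reached 1, where fewer chains were tested. The replicate block gave 20 and 2, and with it 2 collagen chains were DEGs as before. The number of DEGs among collagen chains, 2, was 5 under Benjamini-Hochberg adjustment, and 1 to 2 when single replicates were left out. Those 5, all upregulated, were of 31 tested entries, against 1146 upregulated of 15813 genes. They included COL5A3 and COL9A2, whose direction was set by the filter and whose size depends on the pseudocount, so these 2 add no support. Assembly genes called lower, 11, numbered 7 without the trend, after rescaling to TPM and with quantile normalization. Over all genes, upregulated DEGs went from 389 to 1146 with Benjamini-Hochberg adjustment, 715 with a log2 fold change beyond 1, 213 without the trend and 226 with the replicate block, and from 156 to 337 with a replicate left out. Downregulated DEGs went from 238 to 373, 683 and 141 in the first 3 of these. The ratio of summed chain FPKM, 1.498, was 1.63 after rescaling to TPM. For single chains, COL26A1 changed sign to -0.071 with quantile normalization, and COL27A1, between -0.53 and 0.083 with a replicate left out, changed sign without butyrate replicate 2. Neither had passed the test. Of the other genes named, ITGB1 became 0.16 and KRT5 0.062 with quantile normalization. The median log2 fold change of all genes, 0.10, became 0.24 after rescaling to TPM, 0.00215 among genes whose mean FPKM reached 1 and -0.045 with quantile normalization. The cause was not tested. Same-numbered cultures did not deviate together (correlation across genes 0.0228, -0.00431 and 0.00177). No pairing by number was seen in the values, which cannot show whether such cultures were handled together. The ratio of group means, which needs no pseudocount and was chosen after seeing the data, gave log2 values of 6.43 for COL5A3, 4.91 for COL6A3, 3.99 for COL9A2 and 3.49 for COL4A6. Low FPKM limits what can be said of the chains near 0.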
